A study of Mus musculus with 10 samples.

Results

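The genes described here are 32 genes of cholesterol synthesis, uptake and sterol sensing, measured in whole skin of mice with and without STAT3 in keratinocytes. They were chosen by symbol among the 23282 entries of each library's table, and all 32 were found. The list was selected on gene function with the measured changes of the same comparison, STAT3cKO against WT skin, already known, so the counts below describe the list and are no independent support for it. It holds 20 enzymes of the route from acetyl-CoA to cholesterol, of which Ggps1 sits on a branch to geranylgeranyl diphosphate. The others are 4 genes of uptake and transport inside the cell, 2 exporters, 4 genes of SREBP2 control and 2 liver X receptors. The WT group is 5 libraries from wild-type mice, and the STAT3cKO group is 5 libraries from mice whose keratinocytes had lost STAT3. All were of the C57BL/6 background, at 5 months of age, and the tissue was skin. Neither the promoter behind the ablation nor the exons removed is named in the labels. The labels also leave unsaid whether 1 mouse gave 1 library, and the p-values therefore reflect only the spread among these 10 libraries, which may be technical in part.

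Cells build cholesterol from acetyl-CoA by way of mevalonate, the isoprenoid diphosphates, squalene and lanosterol. The transcription factor SREBP2, encoded by Srebf2, turns on most of these enzymes when sterol in the endoplasmic reticulum runs low: its escort Scap then carries it to the Golgi for cleavage, while the Insig proteins hold both back when sterol is plentiful. Liver X receptors sense oxysterols and turn on exporters such as Abca1 and Abcg1. In skin, keratinocytes make much of their own cholesterol, which is a main lipid of the barrier between cornified cells, and sebaceous glands make sterols for sebum.

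The libraries were made with a kit that reads the 3′ ends of polyadenylated transcripts, so reads follow transcript number rather than length. The deposited values behave as log2 of scaled reads plus 1. Stat3 was at 9.70, 9.08, 10.27, 9.27 and 10.29 in WT 1 to 5 and at 10.25, 9.98, 10.81, 9.49 and 10.13 in STAT3cKO 1 to 5; reads of the 3′ end, in a tissue with many cells other than keratinocytes, check nothing about the ablation. Estimated depth was 7130000 to 18500000 reads per library. STAT3cKO 2 had no read for 2617 of the 11536 tested genes and WT 3 for 1273, against 83 in WT 4. STAT3cKO 2 also differed from the other 9 libraries in carrying Ddx3y, at 10.6, and lacking Xist, at 0.06. Krt71, a keratin of the growing hair follicle, was at 10 or more in WT 4 and in STAT3cKO 1, 3 and 5, and below that in the other 6 libraries. Keratinocyte markers were present in every library, with Krt5 at 11.85 or higher and Krt10 at 12.60 or higher, beside markers of fat, muscle and connective tissue. In such bulk tissue, fewer cells of a type and less RNA per cell cannot be told apart.

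The start regions of 5 members are shown because they span the responses described below: Msmo1 and Cyp51 had the lowest adjusted p-values, Hsd17b7, also called, carried a match to the sterol element, Hmgcs1 carried the stricter match, and Insig1 is the member with the most negative change. Each run goes 5′ to 3′ on the gene's strand, from 250 bases before to 50 after the start in RefSeq on GRCm38.p6. Capitals mark the letters TCACNNCAC, a relaxed form of the sterol regulatory element, and CCAAT, the site of NF-Y, read on either strand (CCAAT then appears as ATTGG). The regions are chr8:64733529-64733828 on the minus strand for Msmo1, chr5:4104648-4104947 on the minus strand for Cyp51, chr1:169969156-169969455 on the minus strand for Hsd17b7, chr13:119690101-119690400 on the plus strand for Hmgcs1 and chr5:28071162-28071461 on the plus strand for Insig1.
Msmo1: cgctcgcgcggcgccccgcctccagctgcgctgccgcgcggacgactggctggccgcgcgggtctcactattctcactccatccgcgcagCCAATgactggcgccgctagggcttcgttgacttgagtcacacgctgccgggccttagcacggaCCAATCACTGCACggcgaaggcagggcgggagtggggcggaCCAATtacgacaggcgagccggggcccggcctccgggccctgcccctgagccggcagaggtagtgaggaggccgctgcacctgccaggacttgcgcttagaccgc
Cyp51: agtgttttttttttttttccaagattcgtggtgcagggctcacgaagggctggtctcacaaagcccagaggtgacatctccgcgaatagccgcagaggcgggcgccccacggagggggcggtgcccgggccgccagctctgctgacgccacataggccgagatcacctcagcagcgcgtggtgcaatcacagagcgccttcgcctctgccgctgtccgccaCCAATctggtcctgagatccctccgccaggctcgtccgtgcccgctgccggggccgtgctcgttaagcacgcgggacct
Hsd17b7: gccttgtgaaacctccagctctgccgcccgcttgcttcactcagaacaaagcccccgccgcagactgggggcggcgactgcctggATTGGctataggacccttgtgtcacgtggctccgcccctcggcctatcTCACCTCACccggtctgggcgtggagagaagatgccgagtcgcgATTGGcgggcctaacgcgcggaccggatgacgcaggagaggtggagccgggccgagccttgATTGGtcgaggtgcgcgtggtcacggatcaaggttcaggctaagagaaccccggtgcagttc
Hmgcs1: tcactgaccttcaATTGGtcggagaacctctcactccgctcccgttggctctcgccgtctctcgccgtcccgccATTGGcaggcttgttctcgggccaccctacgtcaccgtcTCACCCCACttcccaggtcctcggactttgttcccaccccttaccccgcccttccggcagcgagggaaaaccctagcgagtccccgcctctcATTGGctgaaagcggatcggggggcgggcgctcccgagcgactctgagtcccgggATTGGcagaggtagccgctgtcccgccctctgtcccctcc
Insig1: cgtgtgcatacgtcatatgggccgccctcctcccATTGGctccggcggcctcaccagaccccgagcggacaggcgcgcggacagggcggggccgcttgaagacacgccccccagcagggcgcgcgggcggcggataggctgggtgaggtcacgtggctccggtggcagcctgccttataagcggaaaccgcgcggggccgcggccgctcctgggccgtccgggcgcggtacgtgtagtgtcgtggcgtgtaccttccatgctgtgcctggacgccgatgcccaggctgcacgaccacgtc

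In the Msmo1 region TCACTGCAC lay 92 bases before the start and overlapped a CCAAT that began 96 bases before it. In the Hsd17b7 region TCACCTCAC lay 117 bases before the start. In the Hmgcs1 region TCACCCCAC lay 137 bases before it, which also fits the stricter TCACNCCAC. RefSeq start regions were matched for 26 of the 32 members. TCACNNCAC, which includes the stricter form, stood in 4 of these 26 (15.4%): Hmgcs1, Msmo1, Hsd17b7 and Dhcr7. It stood in 4.37% of the 27025 genes with a start region. CCAAT stood in 21 of the 26 members (80.8%) and in 41.1% of all genes. GGGCGG, the site of Sp factors, stood in 22 members (84.6%) and in 38.2% of all genes. These 27025 genes outnumber the 11536 tested ones, and shares among tested genes alone were not taken. A match describes letters and shows no binding. Other forms of the sterol element were not searched, so a gene without a match may still carry one.

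Of the 31 tested members 7 rose in STAT3cKO skin, 4 of them enzymes between lanosterol and cholesterol: Cyp51, Msmo1, Hsd17b7 and Dhcr7. The others were the enzymes Pmvk and Lss and the transport protein Tmem97, and the rises of the 7 ran from 2.92-fold for Dhcr7 to 5.84-fold for Cyp51. No member fell, and 24 did not pass the test, of which 18 had a positive and 6 a negative change. At an unadjusted p under 0.05, 17 members were higher and 1, Insig1, was lower, beside 4.95% higher and 5.95% lower over all tested genes. Over all 11536 tested genes, 0.529% were called higher and 0.459% lower by limma at an adjusted p under 0.05. The median change of the 31 members was 0.91 on the log2 scale (STAT3cKO minus WT), that of the 19 tested enzymes 1.55, and that of all tested genes −0.16. A positive change was found in 25 of 31 members, in 17 of 19 enzymes and in 43.8% of all tested genes. In 11 members every STAT3cKO library lay above every WT library, and in none did every STAT3cKO library lie below; over all tested genes these shares were 1.71% and 1.72%. The member Tm7sf2 had too few values of 5 or more to be tested.

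**Figure D1:**
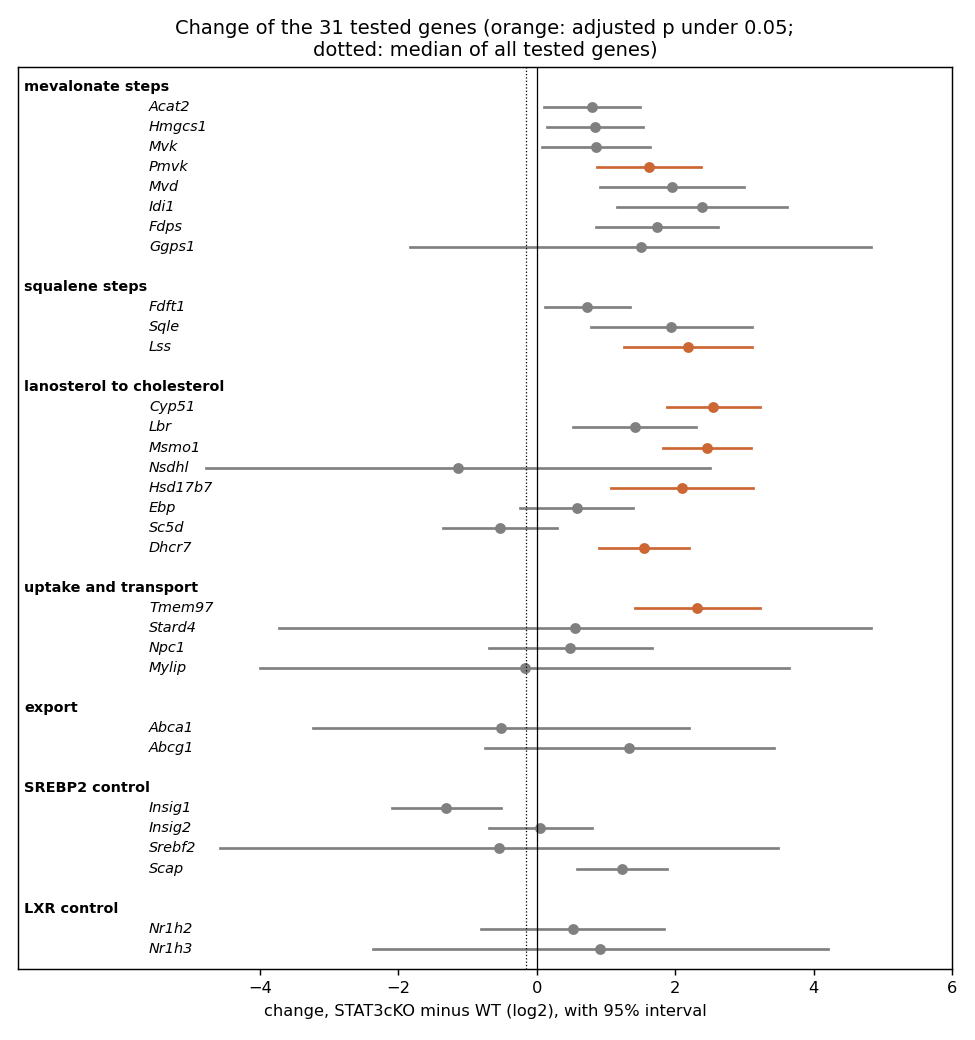
Change of each tested member (STAT3cKO minus WT, log2 scale) with its 95% interval, grouped by role; orange marks the 7 members called at an adjusted p under 0.05. The enzymes sit to the right of 0 with the exception of Nsdhl and Sc5d, and Insig1 is the member farthest to the left.

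The steps from lanosterol to cholesterol held the 2 largest rises, in Cyp51 and Msmo1. Cyp51 (chr5:4081145-4104746, minus strand), the demethylase that opens this stretch, had values of 9.63, 10.54, 10.11, 10.67 and 11.45 across WT libraries 1 to 5 and 12.88, 13.26, 12.59, 13.40 and 13.00 across STAT3cKO libraries 1 to 5. Its lowest STAT3cKO value was above its highest WT value. It rose by 2.55 (SE 0.32, 95% interval 1.87 to 3.22, limma adjusted p = 0.000303), which is 5.84-fold. The reads behind its values numbered 809 to 14762 per library. Msmo1 (chr8:64718139-64733792, minus strand), the methyl sterol oxidase of the next demethylation, was at 11.24, 11.14, 11.39, 10.96 and 12.51 in the WT libraries and at 13.69, 14.14, 13.49, 14.45 and 13.75 in the STAT3cKO libraries. The groups did not overlap, although WT 5 stood above the rest of its group. It rose by 2.46 (SE 0.30, 95% interval 1.82 to 3.09, limma adjusted p = 0.000294).

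Hsd17b7 (chr1:169949535-169969241, minus strand), the reductase that completes the demethylation Msmo1 begins, had WT values of 9.84, 7.15, 9.64, 8.38 and 9.79 and STAT3cKO values of 10.88, 10.22, 11.00, 11.74 and 11.43. The WT values were widely spread, and all lay below the lowest STAT3cKO value. The rise was 2.09 (SE 0.49, limma adjusted p = 0.0489), or 4.26-fold. Dhcr7 (chr7:143823145-143848410, plus strand), a terminal reductase that makes cholesterol from its dehydro precursor, was at 9.84, 9.08, 10.41, 10.12 and 9.53 in WT and at 11.62, 11.28, 11.14, 11.18 and 11.50 in STAT3cKO. Its STAT3cKO libraries formed a narrow band, with a mean of 11.34 ± 0.21 (SD, n = 5) against 9.80 ± 0.51. It rose by 1.55 (SE 0.31, limma adjusted p = 0.0193).

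The other enzymes of this stretch were not called, and their changes had both signs. Lbr, a sterol reductase that also anchors the nuclear lamina, ran from 7.99 to 10.18 in WT and from 9.99 to 11.17 in STAT3cKO, with overlap, and its change was 1.41 (SE 0.42, limma adjusted p = 0.136). Ebp, the sterol isomerase, ran from 9.02 to 10.55 and from 9.29 to 11.04, a change of 0.58 (SE 0.39, limma adjusted p = 0.597). Sc5d, the desaturase that acts just before Dhcr7, had WT values of 9.49 to 10.05 and STAT3cKO values of 8.26 to 10.05, with STAT3cKO 1 and 2 below every WT library. Sc5d differed by −0.53 (SE 0.39, limma adjusted p = 0.636). Nsdhl, the dehydrogenase between Msmo1 and Hsd17b7, was at 9.04, 9.25, 9.63 and 9.27 in STAT3cKO 1, 2, 4 and 5, against 8.15 to 9.44 in WT, and had no read in STAT3cKO 3. The difference of the Nsdhl means was −1.14 (SE 1.65, limma adjusted p = 0.824) with that library and 0.72 without it. Tm7sf2, another sterol reductase, was at no more than 7.45 in any library. Tm7sf2 was not tested.

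Of the squalene enzymes, Lss, the cyclase that makes lanosterol, rose (chr10:76531588-76557138, plus strand). Its values were 8.64, 9.02, 7.63, 8.73 and 9.37 in WT and 10.72, 10.05, 10.07, 11.91 and 11.57 in STAT3cKO. All 5 STAT3cKO values lay above the WT values, with STAT3cKO 4 and 5 highest. The rise was 2.19 (SE 0.44, limma adjusted p = 0.0202), or 4.55-fold. Sqle, the squalene epoxidase that feeds Lss, had WT values of 9.23, 9.20, 6.14, 9.15 and 8.12 and STAT3cKO values of 10.69, 9.26, 10.25, 11.04 and 10.31. The groups touched without overlapping, since STAT3cKO 2 lay just above WT 1, and WT 3 stood far below its group. Its change of 1.94 (SE 0.55) did not pass the test (limma adjusted p = 0.112). Fdft1, the squalene synthase, was steady in WT at 9.98 to 10.20, and was at 10.91, 10.34, 10.47, 11.39 and 10.96 in STAT3cKO. Its groups also did not overlap, and its smaller change of 0.73 (SE 0.29) had a limma adjusted p of 0.358.

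In the mevalonate arm all 8 enzymes had positive changes, with a median of 1.56, and 1 was called. Pmvk (chr3:89454541-89469013, plus strand), a kinase that phosphorylates mevalonate phosphate, had WT values of 8.84, 9.14, 10.24, 9.12 and 8.54 and STAT3cKO values of 10.37, 11.14, 11.07, 10.73 and 10.66. WT 3, the highest of its group, lay just below the lowest STAT3cKO library. Pmvk rose by 1.62 (SE 0.36, limma adjusted p = 0.0337), or 3.07-fold. Mvd, the decarboxylase that follows, was at 7.99, 7.64, 6.53, 7.59 and 7.999 in WT and 9.37, 9.50, 8.64, 10.14 and 9.87 in STAT3cKO. Those groups did not overlap, and its change of 1.96 (SE 0.49) missed the threshold with a limma adjusted p of 0.0695.

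Idi1, the isomerase of isopentenyl diphosphate, had the largest change of the arm without being called. It was at 6.96, 6.57, 6.92, 9.72 and 8.31 in WT and 9.79, 10.65, 10.62, 8.96 and 10.40 in STAT3cKO, so WT 4 overlapped the STAT3cKO group. The change was 2.39 (SE 0.58, limma adjusted p = 0.0596). Fdps, the farnesyl diphosphate synthase, had values of 9.41, 8.93, 7.95, 9.99 and 8.83 and of 11.17, 9.60, 10.94, 11.22 and 10.87 in the same order of groups. STAT3cKO 2 lay inside the WT range and the other 4 STAT3cKO libraries did not. The change of Fdps was 1.74 (SE 0.42, limma adjusted p = 0.0554).

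The entry enzymes had the highest mean values of the arm and smaller changes. Hmgcs1, the synthase of HMG-CoA, was at 12.68, 12.67, 12.23, 12.15 and 11.25 in WT and 13.29, 12.48, 12.49, 13.92 and 12.98 in STAT3cKO. Acat2, the cytosolic thiolase, was at 10.94, 10.61, 10.33, 10.91 and 10.73 in WT and 11.91, 11.31, 10.36, 12.03 and 11.89 in STAT3cKO. Both pairs of groups overlapped, and STAT3cKO 4 was highest in each gene. The changes were 0.83 (SE 0.33, limma adjusted p = 0.345) for Hmgcs1 and 0.79 (SE 0.33, limma adjusted p = 0.378) for Acat2. Mvk, the mevalonate kinase, ran from 8.51 to 9.66 in WT and from 9.64 to 10.53 in STAT3cKO. Ggps1, which branches off to geranylgeranyl diphosphate, ran from 1.26 to 8.29 and from 5.25 to 8.53.

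**Figure D2:**
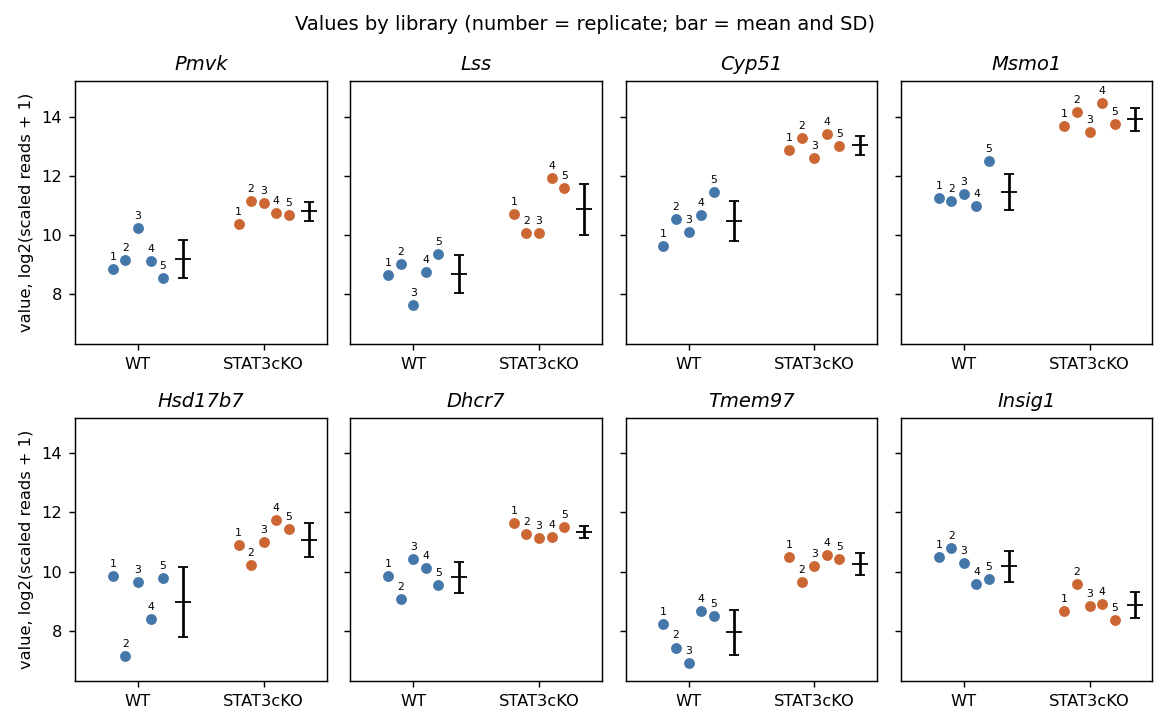
Values (log2 of scaled reads plus 1) of the 7 called members and Insig1 in each library; points are libraries numbered by replicate, bars are group means with SD. For the 7 called members every STAT3cKO point lies above every WT point, while in Insig1 the STAT3cKO points lie lower and STAT3cKO 2 overlaps WT 4.

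Among the genes of uptake and transport, Tmem97 rose (chr11:78541817-78550777, minus strand). It encodes a membrane protein that binds the lysosomal cholesterol transporter Npc1. Tmem97 was at 8.23, 7.43, 6.90, 8.66 and 8.50 in WT and 10.49, 9.63, 10.20, 10.55 and 10.43 in STAT3cKO. The lowest STAT3cKO value was 0.97 above the highest WT value. The rise was 2.32 (SE 0.43, limma adjusted p = 0.0106), or 4.98-fold.

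Npc1 itself, which exports cholesterol from lysosomes, was at 7.92, 8.06, 7.61, 8.77 and 7.37 in WT and 8.71, 9.21, 7.70, 8.19 and 8.34 in STAT3cKO. The groups overlapped and the change was 0.48 (SE 0.56, limma adjusted p = 0.769). Stard4, a carrier of cholesterol between membranes, was uneven in both groups, at 7.66, 3.27, 1.91, 5.54 and 0.08 in WT and 7.63, 0.06, 1.06, 5.79 and 6.66 in STAT3cKO. Its change of 0.55 had an SE of 2.03 (limma adjusted p = 0.940). Mylip, the ubiquitin ligase that marks lipoprotein receptors for degradation, ran from 1.26 to 7.72 in WT and from 0.01 to 8.63 in STAT3cKO.

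Of the genes that control SREBP2, none was called, and the changes of the brake Insig1 and of the escort Scap had opposite signs. Insig1 (chr5:28071363-28078662, plus strand), itself a known SREBP target, was at 10.50, 10.79, 10.28, 9.56 and 9.73 in WT and 8.68, 9.57, 8.83, 8.88 and 8.35 in STAT3cKO. The only overlap was STAT3cKO 2, at 9.57, with WT 4, at 9.56. Insig1 had a change of −1.31 with an SE of 0.37 and a 95% interval of −2.09 to −0.52, and it did not pass the test over all genes (limma adjusted p = 0.112). Scap, the escort, was at 9.47, 9.18, 10.04, 9.26 and 9.70 in WT and 11.20, 10.56, 10.89, 10.65 and 10.48 in STAT3cKO. Every STAT3cKO library was above every WT library. The 1.23 change of Scap (SE 0.31, 95% interval 0.58 to 1.88) missed the threshold, with a limma adjusted p of 0.0680.

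Insig2, the other brake, was at 9.67, 9.29, 10.68, 10.81 and 10.20 in WT and 9.65, 10.14, 10.60, 10.38 and 10.13 in STAT3cKO. The STAT3cKO values lay within the WT range, and the difference of means was 0.05 (SE 0.35, limma adjusted p = 0.970). Srebf2 was thinly measured, from 0.06 to 7.23 in WT and from 1.06 to 8.12 in STAT3cKO, so its transcript level was not resolved. The values say nothing of SREBP2 cleavage, which was not measured.

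The exporters and the liver X receptors were not called. Abca1, which loads cholesterol onto apolipoproteins, was at 8.59, 8.94, 8.06, 8.05 and 9.96 in WT and 9.29, 2.74, 9.83, 9.27 and 9.89 in STAT3cKO. STAT3cKO 2 alone lay far below the others. Abca1 differed by −0.52 (SE 1.24, limma adjusted p = 0.902), and by 0.85 without STAT3cKO 2. Abcg1, the exporter to lipoprotein particles, was at 6.23, 5.83, 7.99, 6.42 and 6.98 in WT and 8.98, 9.94, 7.72, 5.47 and 8.01 in STAT3cKO. Its STAT3cKO values spanned the WT range, and its change was 1.34 (SE 0.99, limma adjusted p = 0.641).

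Nr1h2, the widely expressed liver X receptor, was at 7.20, 8.20, 7.66, 8.90 and 7.94 in WT and 8.08, 10.25, 8.41, 7.11 and 8.62 in STAT3cKO. Nr1h3, its paralog, was at 9.08, 8.87, 8.81, 5.98 and 0.08 and at 5.78, 9.14, 7.83, 8.53 and 6.10. Both overlapped between groups, and the Nr1h3 value of WT 5 is that of no read. The changes were 0.52 (SE 0.63, limma adjusted p = 0.785) and 0.91 (SE 1.56, limma adjusted p = 0.847).

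Summed over the 20 enzymes, the groups did not overlap. The log2 of their summed scaled reads was 14.29, 14.25, 14.22, 14.29 and 14.38 in WT and 15.76, 15.66, 15.43, 16.26 and 15.82 in STAT3cKO. The WT libraries lay within a narrow band, and the STAT3cKO libraries lay above it with a wider spread. STAT3cKO 4 had the highest value of all 10 libraries in 12 of the 19 tested enzymes. STAT3cKO 2 was the lowest of its group in 9 of them, and WT 3 the lowest of all 10 in 6. Such sums are weighted towards the abundant members Hmgcs1, Cyp51 and Msmo1.

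**Figure D3:**
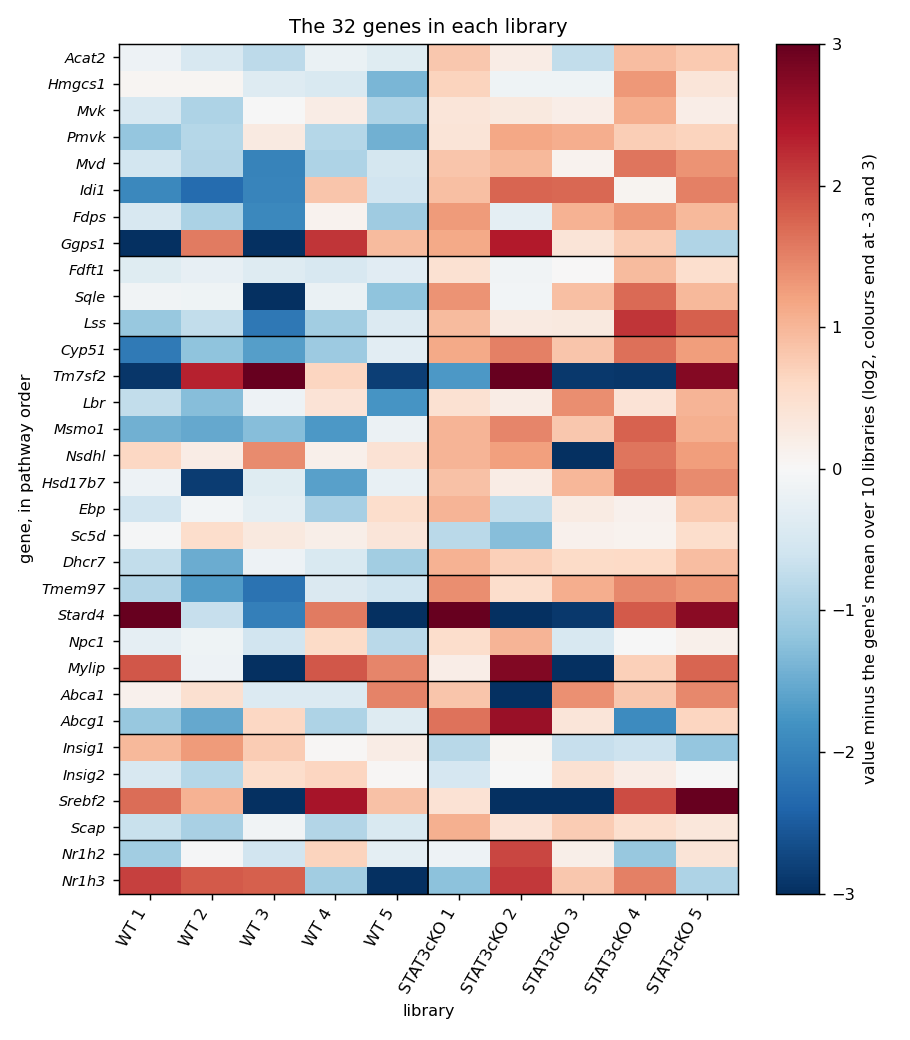
Deviation of each member from its mean over the 10 libraries (log2 scale), with members in rows by role and libraries in columns. Enzyme rows are mostly below their mean in WT and above it in STAT3cKO, the Insig1 row runs the other way, and the dark blue cells include libraries without a read; colours end at −3 and 3.

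Some calls changed with the settings and with the libraries used. Cyp51 and Msmo1 were called in all 22 alternative analyses, Tmem97 in 19, Lss in 15, Dhcr7 in 14, and Pmvk and Hsd17b7 in 8 each. Of the members outside the 7, Fdps was called in 7 alternatives, Idi1 in 5, Scap and Lbr in 2 each, and Mvd, Sqle and Insig1 in 1 each. Leaving out any 1 library kept the calls of Cyp51, Msmo1 and Tmem97. Lss lost its call without WT 3 or STAT3cKO 1, 4 or 5, and Dhcr7 without WT 2 or STAT3cKO 1 or 5. Pmvk kept its call in 2 of 10 such analyses (without WT 3 or WT 4), with a highest limma adjusted p of 0.0986 without WT 1, and Hsd17b7 in 3 of 10 (without WT 1, WT 5 or STAT3cKO 2), with 0.116 without STAT3cKO 5. The count of called members was 3 without STAT3cKO 1 or 5 and 4 without WT 2 or STAT3cKO 4. It was 7 without STAT3cKO 2 and WT 3 together, where Fdps (limma adjusted p = 0.0253) joined the calls and Hsd17b7 (0.0502) left them. Calls over all tested genes also changed with 1 library left out, over the range given in the last section. The set without the 4 libraries rich in Krt71 held WT 1, 2, 3 and 5 and only STAT3cKO 2 and 4. Called members there were 2, Cyp51 and Msmo1. The changes there were 2.33 for Tmem97, 2.32 for Lss, 1.87 for Hsd17b7, 1.75 for Pmvk and 1.51 for Dhcr7. The part of the smaller groups in the lost calls was not tested. All 7 kept their direction in the 22 alternatives. The deposited scaled reads summed to 10800000 to 11400000 per library in WT and 9690000 to 10700000 in STAT3cKO, without overlap. With all libraries scaled to equal totals 10 members were called, and the split over all genes was 76 higher and 39 lower in place of 61 and 53.

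Marker genes of several skin compartments differed between the same groups. Of 12 tested sebaceous gland markers 2 rose, the lipid elongase Elovl3, at 6.20 to 10.33 in WT and 12.34 to 13.65 in STAT3cKO, and the duct keratin Krt79, at 10.39 to 11.85 and 12.96 to 14.56. The median change of these 12 was −0.72, with 5 positive. At an unadjusted limma p under 0.05, 4 were higher and 2 lower. Mc5r was at 0 everywhere, and Scd3 was at 8.77 to 11.20 in WT and 0.00 to 7.80 in STAT3cKO. The summed level of the sebaceous markers was 14.80 to 15.14 in WT and 15.34 to 16.05 in STAT3cKO. This sum is weighted towards abundant markers such as Krt79, Fabp5 and Mgst1, while 7 of the 12 tested markers had negative changes. Suprabasal keratinocyte markers had 9 positive changes of 9, with a median of 1.15, 0 called by limma and 6 at an unadjusted p under 0.05, and summed levels of 15.36 to 17.27 and 17.06 to 17.95. Basal markers had 8 positive changes of 8, with a median of 0.33, 0 called by limma and 1 at an unadjusted p under 0.05, and summed levels of 13.11 to 14.97 and 14.34 to 15.78. Their part in the enzyme values was not tested.

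Markers of other compartments were lower or overlapped. All 10 adipocyte markers had negative changes, with a median of −2.35. Car3 fell, and all 10 were lower at an unadjusted limma p under 0.05. The summed level was 16.81 to 19.31 in WT and 15.34 to 17.91 in STAT3cKO. All 9 macrophage markers had negative changes with a median of −0.62, 0 called by limma and 2 at an unadjusted p under 0.05. Of 7 fibroblast markers 3 had positive and 4 negative changes, with a median of −0.89. Dpt fell, and at an unadjusted limma p under 0.05 2 were lower and 0 higher. The summed level was 16.03 to 16.71 in WT and 14.66 to 17.18 in STAT3cKO. Of the muscle, endothelial, melanocyte and hair shaft markers 0 were called by limma, and at an unadjusted p under 0.05 2 muscle markers were lower and 0 of the others differed, and the hair shaft sum ranged from 7.65 to 17.53 in WT and from 7.94 to 16.60 in STAT3cKO. The part of these compartments in the results was likewise not tested.

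**Figure D4:**
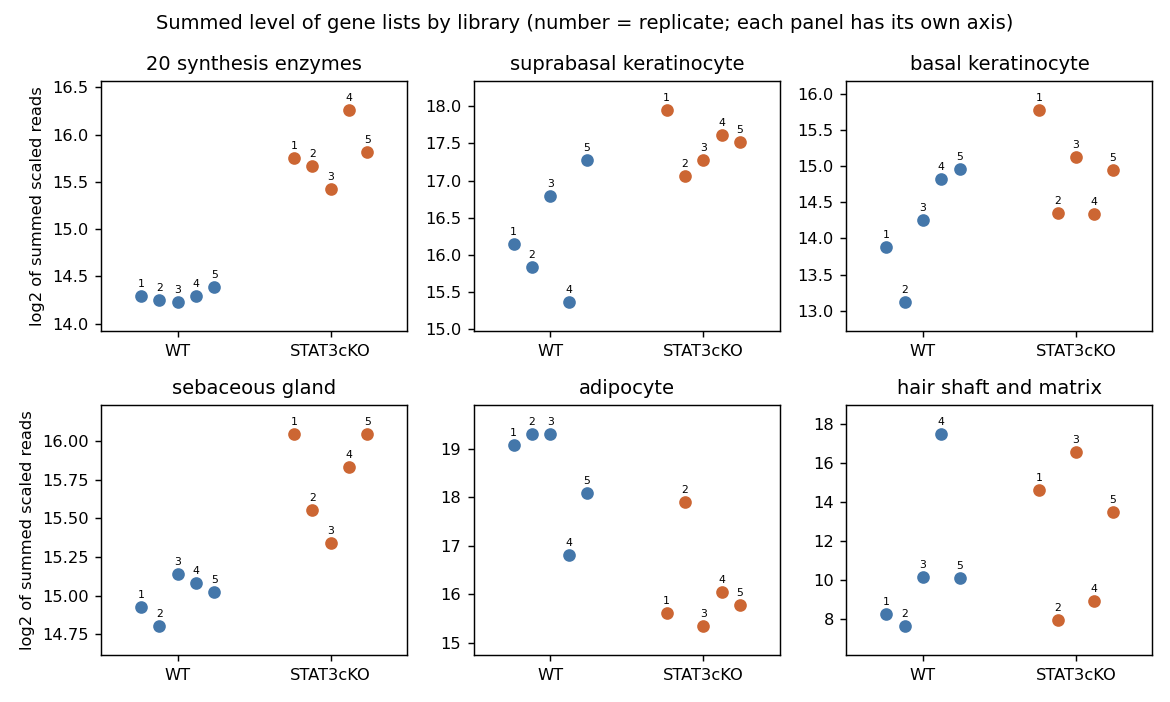
Log2 of the summed scaled reads of the 20 synthesis enzymes and of marker lists of skin compartments, 1 point per library. The enzyme sums do not overlap between groups (14.22 to 14.38 in WT, 15.43 to 16.26 in STAT3cKO). Those of the sebaceous list, weighted towards its abundant markers, do not overlap either, while the other 4 lists shown overlap.

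Outside the 32 members, 48 further genes of sterol metabolism were looked at, covering isoprenoid branches, lipoprotein uptake, sterol carriers, Insig degradation, oxysterol synthesis and esterification. Of these 45 were found, 37 were tested and 0 were called by limma, with 19 positive changes and a median of 0.02. At an unadjusted p under 0.05, 2 were higher and 1 was lower. The largest positive changes were 3.80 for Sult2b1, which makes cholesterol sulfate in cornifying cells (SE 1.74, limma adjusted p = 0.440), 1.68 for Dhdds and 1.35 for Nus1, the subunits of the dolichol-making prenyltransferase (limma adjusted p = 0.762 and 0.197). The largest negative changes were −2.50 for the transporter Abca2, −2.34 for Erlin2, a scaffold of sterol-regulated degradation, and −2.15 for the lipoprotein receptor Vldlr (limma adjusted p = 0.565, 0.547 and 0.714). Without STAT3cKO 2 these were −1.18, −0.81 and −1.20. Vldlr was also −1.18 without STAT3cKO 3, and −3.40 and −3.33 without STAT3cKO 4 and WT 3. Dhdds was 0.87 without WT 3, 0.89 without WT 5 and 3.05 without STAT3cKO 4. Of these 6 genes 4 had libraries without a read: Sult2b1, Abca2, Erlin2 and Vldlr.

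Exons of 9 members overlap those of a gene on the opposite strand, and no source used here says whether counting used strand. For Cyp51 the overlap is 166 bases at its 3′ end with Akap9, whose own values were 8.46 on average in WT and 8.75 in STAT3cKO. For Fdft1 it is 774 bases at the 3′ end with Ctsb, at 13.84 and 13.43. Lbr shares 440 bases at its 3′ end with Dnah14, and Npc1 shares 511 bases with Rmc1, 114 bases from its 3′ end. On the same strand, Fdps shares 1124 bases with Gm43738, 59 bases from its 3′ end. Dnah14, Rmc1 and Gm43738 have no entry under those names. Whether reads of the opposite-strand pairs were told apart there is therefore not known. Strand could not tell apart the reads of Fdps and Gm43738 in the shared bases.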

How the data were processed

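Per the submitters' processing notes, Bowtie2, bedtools and the build mm10 were used; versions, annotation, strand use and scaling are not stated there. The authors deposited 1 table per library with values that behave as log2 of scaled reads plus a pseudocount of 1, as read from the values, since the file headers name no unit. Low values were whole multiples of the worth of 1 read within 0.15 of a read in 88.8 to 100% of cases, which gave the depths; they cover counting error only. Values below 0.5 of a read count as no read.

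Genes with a value of at least 5 in at least 5 libraries (11536) were fitted with limma 3.58.1 in R 4.3.3 (group only, mean trend, robust). They were called at a Benjamini-Hochberg adjusted p under 0.05 over all of them. Every adjusted p is from this fit unless an alternative is named with it. The steps were tested on simulated data. Changes are STAT3cKO minus WT on the scale of log2 of scaled reads plus 1. On it, libraries with few or no reads can make the change of a low gene smaller or larger. Intervals are at 95%, and n is 5 per group unless libraries were left out. The members and lists were chosen with earlier results of these data known.

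Per-library values are given for called members and, in each role, for the 2 largest changes and the 2 highest means. Fdps and the changes of Lbr, Nsdhl, Ebp and Sc5d were added after values were seen. Of further pathway genes the 3 largest changes in each direction are named. Alternatives covered low-value filters, the pseudocount, scaling, moderation, library weights, the replicate number, depth and left-out libraries. Positions are from GENCODE (GRCm38) and start regions from RefSeq. Figures used matplotlib 3.10.9 in Python 3.11.15. Some genes of the pathway are not reported here.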

Additional observations from a re-analysis of the deposited data

Results flagged for a closer look

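Among the 64 sets of 5 values (32 members in each group), 7 held a library that stood apart from the rest of its group by Dixon's criterion, which chance alone gives in about 1 of 20 sets. On the high side were Mvk in STAT3cKO 4, at 10.53 against 9.80 in the nearest library, and Msmo1 in WT 5, at 12.51 against 11.39. On the low side were Mvd in WT 3, at 6.53 against 7.59, and Fdps in STAT3cKO 2, at 9.60 against 10.87. Also low were Nsdhl in STAT3cKO 3, at 0.013 (no read) against 9.04, Abca1 in STAT3cKO 2, at 2.74 against 9.27, and Srebf2 in WT 3, at 0.056 (no read) against 5.62. Of the 7, 4 were in STAT3cKO 2 or WT 3, the libraries with the most tested genes without a read.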

How the results depend on the processing

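The 114 calls over all tested genes became 175 with a pseudocount of 16, 176 after quantile normalization, 44 without mean trend and robust estimation, 375 with library weights, 174 in the 4 deepest and 16 in the 6 shallowest libraries, and 63 without the Krt71-rich libraries, an alternative chosen after the values were seen. The deepest set held WT 1 and 2 and STAT3cKO 4 and 5. The shallowest held WT 3, 4 and 5 and STAT3cKO 1, 2 and 3. Depth therefore cannot be told apart here from group size and library choice. Leaving out 1 library gave 61 (without STAT3cKO 1) to 207 (without WT 4). The 7 called members became 2 without trend and robust estimation, 14 with library weights (Insig1 among them, lower, limma adjusted p = 0.00999), 4 in the deepest, 2 in the shallowest libraries and 2 without the Krt71-rich ones. Leaving out 1 library gave 3 to 9. The median change of 0.91 was 1.23 with a minimum value of 7, 1.18 in the deepest, 1.20 in the shallowest libraries and 1.28 without the Krt71-rich ones, and 0.80 to 1.26 with 1 library left out. The 11 members without overlap became 23 in the deepest libraries and 17 without the Krt71-rich ones, since fewer libraries are compared. Shares over all tested genes were not taken in these smaller sets, so these counts are no result about the members. With the replicate number as a block, 66 genes and 5 members were called. Same-numbered libraries did not deviate together (correlations of −0.155 to 0.016), so the numbers were not taken to pair them.

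Among the genes whose change is given under these alternatives, the direction reversed in 8 uncalled members and in Dhdds and Abca2, and in none of the 7 called members. Abca1 turned to 0.20 after quantile normalization, 0.51 with library weights, 0.69 without STAT3cKO 2 and WT 3, and 0.82 in the deepest libraries, and ran from −0.94 to 0.85 with 1 library left out. Nr1h3 turned to −0.37 with library weights and −1.66 in the deepest libraries, and ran from −0.71 to 1.54. Nr1h2 was −0.0022 without STAT3cKO 2 and WT 3, Insig2 −0.43 in the shallowest libraries and −0.16 to 0.22 with 1 left out, and Stard4 −0.30 without the Krt71-rich libraries and −0.35 to 1.60 with 1 left out. Nsdhl was 1.01 in the deepest libraries, 0.75 without the Krt71-rich ones and −1.69 to 0.72 with 1 left out. Ebp was −0.19 without the Krt71-rich libraries. In the deepest libraries Sc5d was 0.0755, Dhdds was −2.89 and Abca2 0.53. The cause was not tested. Equal totals moved the median of all genes by 0.11.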
